A study of Mus musculus with 28 samples.

Results

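The potassium channel genes of the mouse amygdala were examined across Water, Acute and Chronic drinking mice. Genes were chosen by symbol, as those that GENCODE M21 names with the letters *Kcn*, and 99 symbols met this. Of these, 76 were present in both count tables with a mean of 10 or more counts over 28 mice, out of 16266 genes that passed the same minimum. Of the others, 14 fell below the minimum, 5 were antisense genes, 2 (*Kcne2* and *Kcnj13*, both choroid plexus genes) were left out, and 2 (*Kcnk4* and *Kcnk18*) were in the second table alone. The nearest genes outside the minimum were *Kcnrg* (mean count 9.11) and *Kcnk5* (7.96), and the nearest inside were *Kcne4* (10.5) and *Kcnq1* (10.9). The 76 genes comprised 37 voltage-gated channel genes, 9 auxiliary genes of voltage-gated channels, 10 of the calcium- and sodium-activated group with BK and SK channels, 12 inward rectifiers including the GIRK channels, and 8 two-pore channel genes.

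All mice were adult C57BL6/J females, with no transgene named for any group, and RNA came from micropunches aimed at the basolateral and central amygdala. The 10 Water mice drank only water, the 9 Acute mice had 20% ethanol beside water in a single session at the end, and the 9 Chronic mice could choose between water and 20% ethanol on alternate days throughout. They came as a first cohort of 4, 4 and 3 mice and a second of 6, 5 and 6, here called batches. Each punch holds many cell types, so fewer cells of a type and less RNA per cell cannot be told apart in these data.

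Potassium channels let potassium leave a neuron and so pull its membrane towards rest. Voltage-gated channels end the action potential and set its frequency, BK and SK channels respond to calcium that enters during firing, GIRK channels open when a G protein-coupled inhibitory receptor is active, and two-pore channels carry the background leak. Ethanol is known to act on BK and GIRK channels directly, which is why both are often studied in the amygdala and its neighbours.

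A pore-forming subunit carries a selectivity filter, a short loop of a threonine or serine, any residue, a glycine, a tyrosine, phenylalanine or leucine, and a glycine. The codons of that pattern were searched in the longest annotated coding sequence of each gene, on the coding strand, to see which of the 76 genes encode a pore. The pattern was found in 64 genes. It occurred in all 37 voltage-gated genes, in all 12 inward rectifiers and in 7 of 10 genes of the BK and SK group, where the BK beta subunit genes *Kcnmb1*, *Kcnmb2* and *Kcnmb4* had none. All 8 two-pore genes had 2 copies, which is the arrangement that names them, and none of the 9 auxiliary genes had a copy. Voltage-gated genes had 1 copy in 35 cases and 2 in 2 cases (*Kcna6* and *Kcnh2*), where the additional match has a leucine before its last glycine. Among the other tested genes with a coding sequence, 825 of 14223 (5.8%) held the pattern at least once, so a match is a description of letters and not by itself a pore. The stretches below show genes of several kinds, as 24 bases of coding sequence with the 15 bases of the filter codons in capitals (GRCm38, GENCODE M21 annotation, coding strand, 5′ to 3′).
*Kcna2*, voltage-gated Kv1: atgacaACTGTAGGCTATGGAgac
*Kcnh2*, voltage-gated ERG, second match: ctcaccAGCGTGGGCTTTGGCaat
*Kcnma1*, BK: atgtctACAGTGGGTTATGGGgac
*Kcnj3*, GIRK: gaggccACCATCGGCTATGGCtac
*Kcnk1*, two-pore, first copy: ctctccACCACAGGCTATGGCcac
*Kcnk1*, two-pore, second copy: ctgagcACCATCGGCCTGGGGgac

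The capitals lie within a coding exon of each gene, at chr3:107105224-107105238 on the plus strand for *Kcna2*, chr5:24325555-24325569 on the minus strand for *Kcnh2* and chr14:23528413-23528427 on the minus strand for *Kcnma1*. For *Kcnj3* they lie at chr2:55437627-55437641 on the plus strand. The first copy of *Kcnk1* is split by an intron and runs from chr8:125995808 to 126025019 on the plus strand, and the second lies at chr8:126025329-126025343. The most frequent form among voltage-gated genes was threonine, valine, glycine, tyrosine and glycine (17 matches). Another 7 matches, *Kcnh2* among them, encode serine, valine, glycine, phenylalanine and glycine, and 7 encode threonine, leucine, glycine, tyrosine and glycine. Of the inward rectifiers 9 encode threonine, isoleucine, glycine, tyrosine and glycine, as *Kcnj3* does.

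Levels were compared between genes as TMM-normalized CPM (counts scaled to library size) per kb of union exon length, with the difference between the batches removed. Over the Water mice the 76 levels ran from 0.158 to 49.9 CPM per kb with a median of 5.17. The median without removal of the batch difference was 5.15, beside 4.04 over all 16266 genes. The highest 10 genes held 42.6% of the summed level in Water mice and the highest 20 held 67.1%. Exons of 23 of the 76 overlap a gene on the other strand, and the strand setting of the counting is not given in the sources used here, so the reads of such a pair cannot be told apart. Among the genes with values here these are *Kcna6*, *Kcnab1*, *Kcnab3*, *Kcng2*, *Kcnip4*, *Kcnj3*, *Kcnj6*, *Kcnj9*, *Kcnk1*, *Kcnk2*, *Kcnk3*, *Kcnma1*, *Kcnmb4*, *Kcnn1*, *Kcnn2*, *Kcnq1*, *Kcnq5* and *Kcnt2*. The plot of levels by family shows a wide range within every family.

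**Figure D1:**
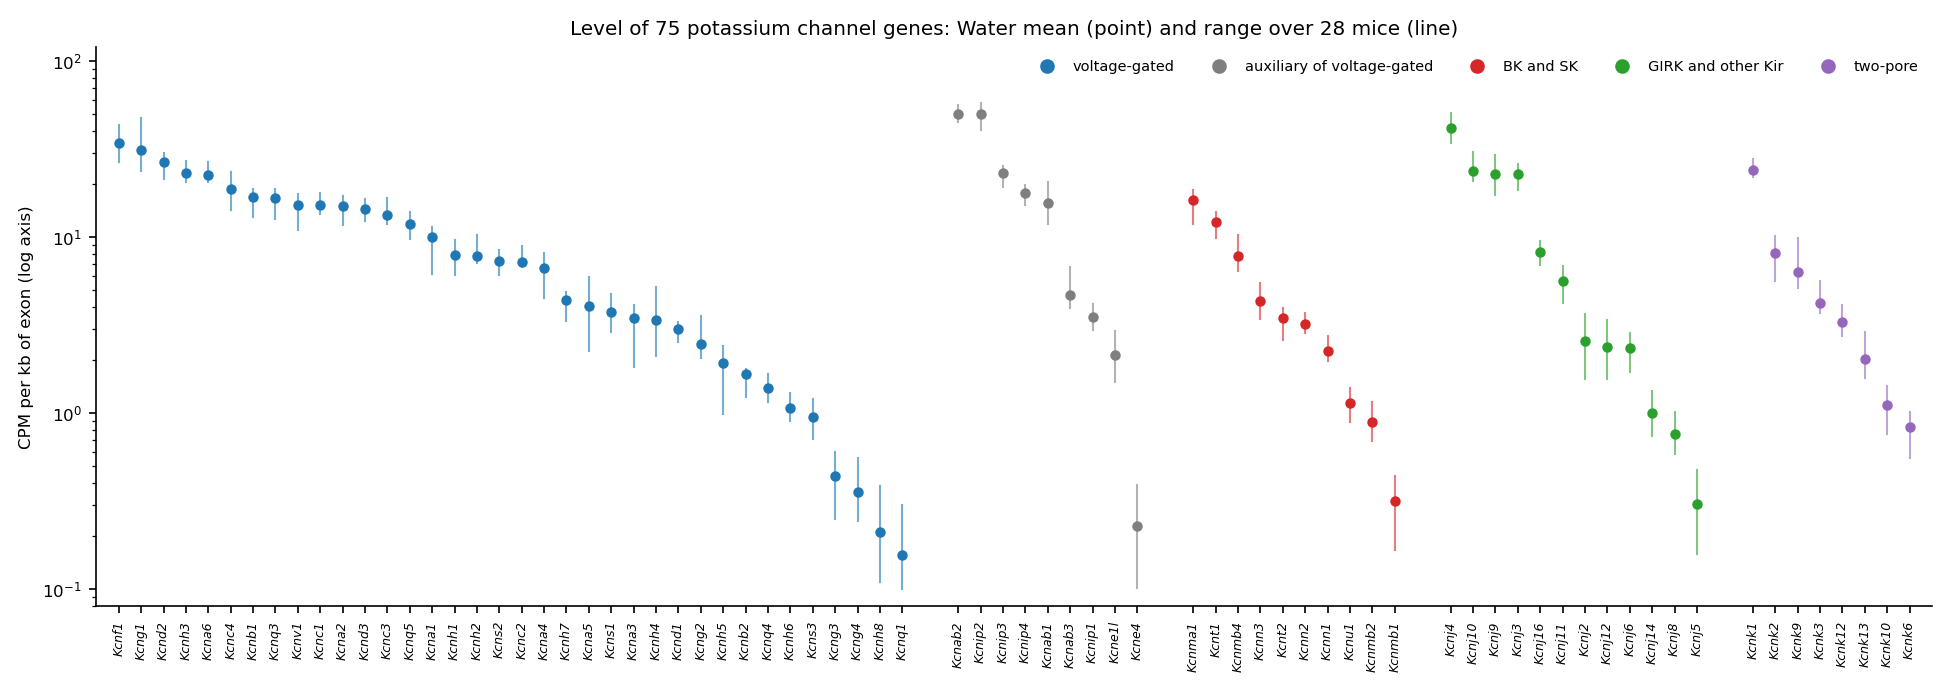
Level of 75 genes in CPM per kb of exon on a log axis, grouped by family and ordered by level. Points are the Water mean, and lines run from the lowest to the highest of 28 mice. Levels run from 0.158 (*Kcnq1*) to 49.9 (*Kcnab2*).

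The auxiliary genes *Kcnab2* and *Kcnip2* had the highest means of the 76. Over all 76 genes, 74 of 75 pairs of neighbours in the order overlapped in their Water ranges, so this lead is not resolved. *Kcnab2*, a Kv beta subunit, was at 49.9 ± 2.75 CPM per kb (SD, 10 Water mice), and *Kcnip2*, a KChIP protein that binds Kv4 channels, was at 49.9 ± 4.87. The next auxiliary gene was *Kcnip3* at 23.0 ± 2.02, lower in the order of the 76 than several genes of other families, and the Water ranges of *Kcnip2* and *Kcnip3* did not overlap. Exons of *Kcnab2* overlap another gene on the same strand, so its counts may be shared.

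Among voltage-gated channels, high levels were those of *Kcnf1* (34.4 ± 4.25 CPM per kb), the highest of them, and *Kcng1* (31.3 ± 6.65), silent subunits that act only together with Kv2 partners. *Kcnd2*, the main Kv4 channel of dendrites, was at 26.7 ± 3.08, *Kcnq3*, a Kv7 subunit of the M-current, at 16.6 ± 1.35, *Kcna2* at 15.0 ± 1.45, *Kcnq5* at 11.8 ± 1.36 and *Kcna1* at 9.97 ± 0.981. In this family 35 of 36 pairs of neighbours in the order overlapped in their Water ranges, so the order from one gene to the next is not resolved.

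Within the BK and SK group, *Kcnma1*, the BK pore, was highest at 16.3 ± 1.10 CPM per kb and stood above *Kcnt1*, a sodium-activated channel, at 12.2 ± 1.05, with no overlap of their Water ranges. The neuronal BK beta subunit *Kcnmb4* was at 7.78 ± 1.33. The SK genes *Kcnn3* (4.32 ± 0.555), *Kcnn2* (3.21 ± 0.259) and *Kcnn1* (2.26 ± 0.166) were lower. The order of *Kcnn2* and *Kcnn1* depended on the batch. Before the batch difference was removed, *Kcnn2* ran from 1.63 to 1.95 CPM per kb in the 4 Water mice of the first batch, below *Kcnn1* (2.07 to 2.32), and from 4.17 to 5.34 in the 6 of the second, above *Kcnn1* (2.03 to 2.56).

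Among the inward rectifiers *Kcnj4*, a strong rectifier of forebrain neurons, was highest at 41.6 ± 4.37 CPM per kb, above all others in its Water range. *Kcnj10*, the astrocyte channel that buffers potassium, was at 23.6 ± 1.55. The GIRK subunits *Kcnj9* (22.9 ± 2.94) and *Kcnj3* (22.7 ± 1.78) overlapped each other, whereas *Kcnj6* was at 2.34 ± 0.324 and *Kcnj5* at 0.304 ± 0.085. *Kcnk1* was the highest two-pore gene at 23.9 ± 1.36, above *Kcnk2* (8.14 ± 1.78) without overlap, and *Kcnk9* followed at 6.37 ± 0.757.

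Total counts per mouse lay between 20004380 and 22569562, and the 76 genes held 0.439% to 0.532% of them. Neuronal markers were high in every library, with *Snap25* between 1372 and 1907 CPM, *Slc17a7* between 792 and 1573, and *Gad2* between 267 and 663. The neuron score (mean log2 CPM of 10 markers, batch difference removed) was 8.75 ± 0.051, 8.83 ± 0.050 and 8.79 ± 0.046 in Water, Acute and Chronic mice, and the central amygdala score was 5.04 ± 0.192, 5.28 ± 0.227 and 5.14 ± 0.268. The striatum score was 6.14 ± 0.774, 6.27 ± 0.345 and 5.87 ± 0.424, and the oligodendrocyte score 7.02 ± 0.218, 7.13 ± 0.257 and 7.08 ± 0.192. Summed CPM of the 8 choroid plexus and ependyma markers ran from 25.4 to 4380 over the mice, and each group covered most of that range. The part of these differences in the values given next was not tested.

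The summed level of the 76 genes differed between the 3 groups by less than its spread between mice. In Water, Acute and Chronic mice it was 789 ± 33.3, 789 ± 38.6 and 798 ± 40.9 CPM per kb (SD, batch difference not removed). Voltage-gated channels held 49.0% ± 1.12, 48.3% ± 1.32 and 49.2% ± 1.53 of it, in the same order of groups. Auxiliary genes held 21.1% ± 1.18, 21.6% ± 1.22 and 20.8% ± 1.20, and inward rectifiers 17.0% ± 0.360, 17.2% ± 0.561 and 16.9% ± 0.505. The BK and SK group held 6.59% ± 0.322, 6.38% ± 0.385 and 6.50% ± 0.315, and two-pore channels 6.32% ± 0.325, 6.57% ± 0.556 and 6.55% ± 0.396.

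**Figure D2:**
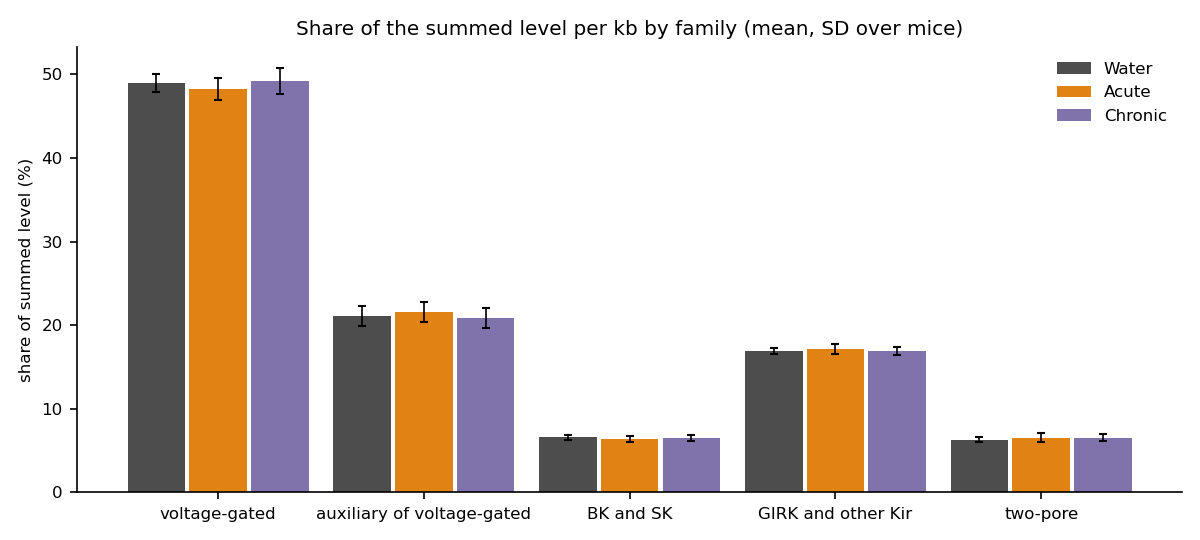
Share of the summed level per kb held by each family, in percent, in Water (grey), Acute (orange) and Chronic (purple) mice. Bars are means and error bars SD over 10, 9 and 9 mice. The groups differ by less than 1 percentage point in every family.

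The 3 groups entered a single edgeR quasi-likelihood fit that also held the batch, and p-values are 2-sided and Benjamini-Hochberg adjusted over 16266 genes, and a gene was called at an adjusted p under 0.05. Fold changes are given as log2 with standard error. Values per mouse are batch-centred CPM, that is, CPM with the batch difference removed on the log scale.

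For Acute against Water drinking, the question was whether a single session of ethanol moved the channel genes. None of the 76 was called, as none of the 16266 was (0%), and the lowest adjusted p among the 76 was 0.43. These counts hold for the edgeR fit used here. The paper adjusted for batch with ComBat-seq, tested with DESeq2 and called genes in both comparisons with Water at an adjusted p under 0.05. At an unadjusted p under 0.05, 3 were higher (3.95% of the 76, beside 5.07% of all genes) and 2 were lower (2.63%, beside 4.45%). Leaving out 1 mouse gave 0 to 4 higher and 1 to 5 lower, with 0 and 3 without Water mouse 1, 0 and 2 without Acute mouse 3, and 2 and 5 without Water mouse 5, all of the second batch. The median log2 fold change was 0.0057 over the 76 and 0.0011 over all genes. Of the 76, 39 estimates lay above 0 and 37 below. By family the medians ran from -0.047 in the BK and SK group (2 above 0 and 8 below) to 0.051 in the two-pore group (6 above and 2 below).

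The precision allowed changes of 1.5-fold, and for fewer genes 1.3-fold, to be bounded. Smaller changes were not bounded for every gene, and the interval of *Kcnma1*, for example, ran from 0.852- to 1.005-fold. The 95% interval of the fold change lay within 1.5-fold in either direction for 73 of 76 genes, and within 1.3-fold for 64. The exceptions to 1.5-fold were *Kcng3*, *Kcnh8* and *Kcnq1*, all at a low level. Each interval holds for 1 gene and not for all 76 together.

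*Kcnb2* (Kv2.2, a delayed rectifier) had the smallest p. It ran from 23.5 to 27.1 batch-centred CPM in Water mice with a median of 25.3, and from 18.9 to 25.5 with a median of 22.2 in Acute mice. The groups overlapped, and 8 of 9 Acute mice lay below the Water mean. Its log2 fold change was -0.18 ± 0.065 (unadjusted p = 0.00860, adjusted p = 0.43), and it was below 0 in both batches (-0.12 and -0.24). *Kcng3*, a silent subunit with a mean count of 26.1, had -0.36 ± 0.172 (adjusted p = 0.513), and the calcium-gated BK pore *Kcnma1* -0.11 ± 0.058 (adjusted p = 0.552). *Kcnt2*, a sodium-activated channel, had -0.12 ± 0.067.

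Among those with a higher estimate, the Kv beta gene *Kcnab3* ran from 11.3 to 17.7 CPM in Water (median 13.5), whereas Acute mice ran from 11.8 to 18.9 (median 14.6). Its log2 fold change was 0.19 ± 0.089 (adjusted p = 0.502), with 8 of 9 Acute mice above the Water mean. *Kcnip4* had 0.084 ± 0.039 (adjusted p = 0.507), *Kcnh2*, the ERG channel, 0.12 ± 0.058 (adjusted p = 0.52), and *Kcnj4* 0.11 ± 0.060 (adjusted p = 0.567). The *Kcnh2* values ran from 35.1 to 42.4 CPM in Water and from 34.5 to 45.8 in Acute mice, and the groups overlapped. 

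**Figure D3:**
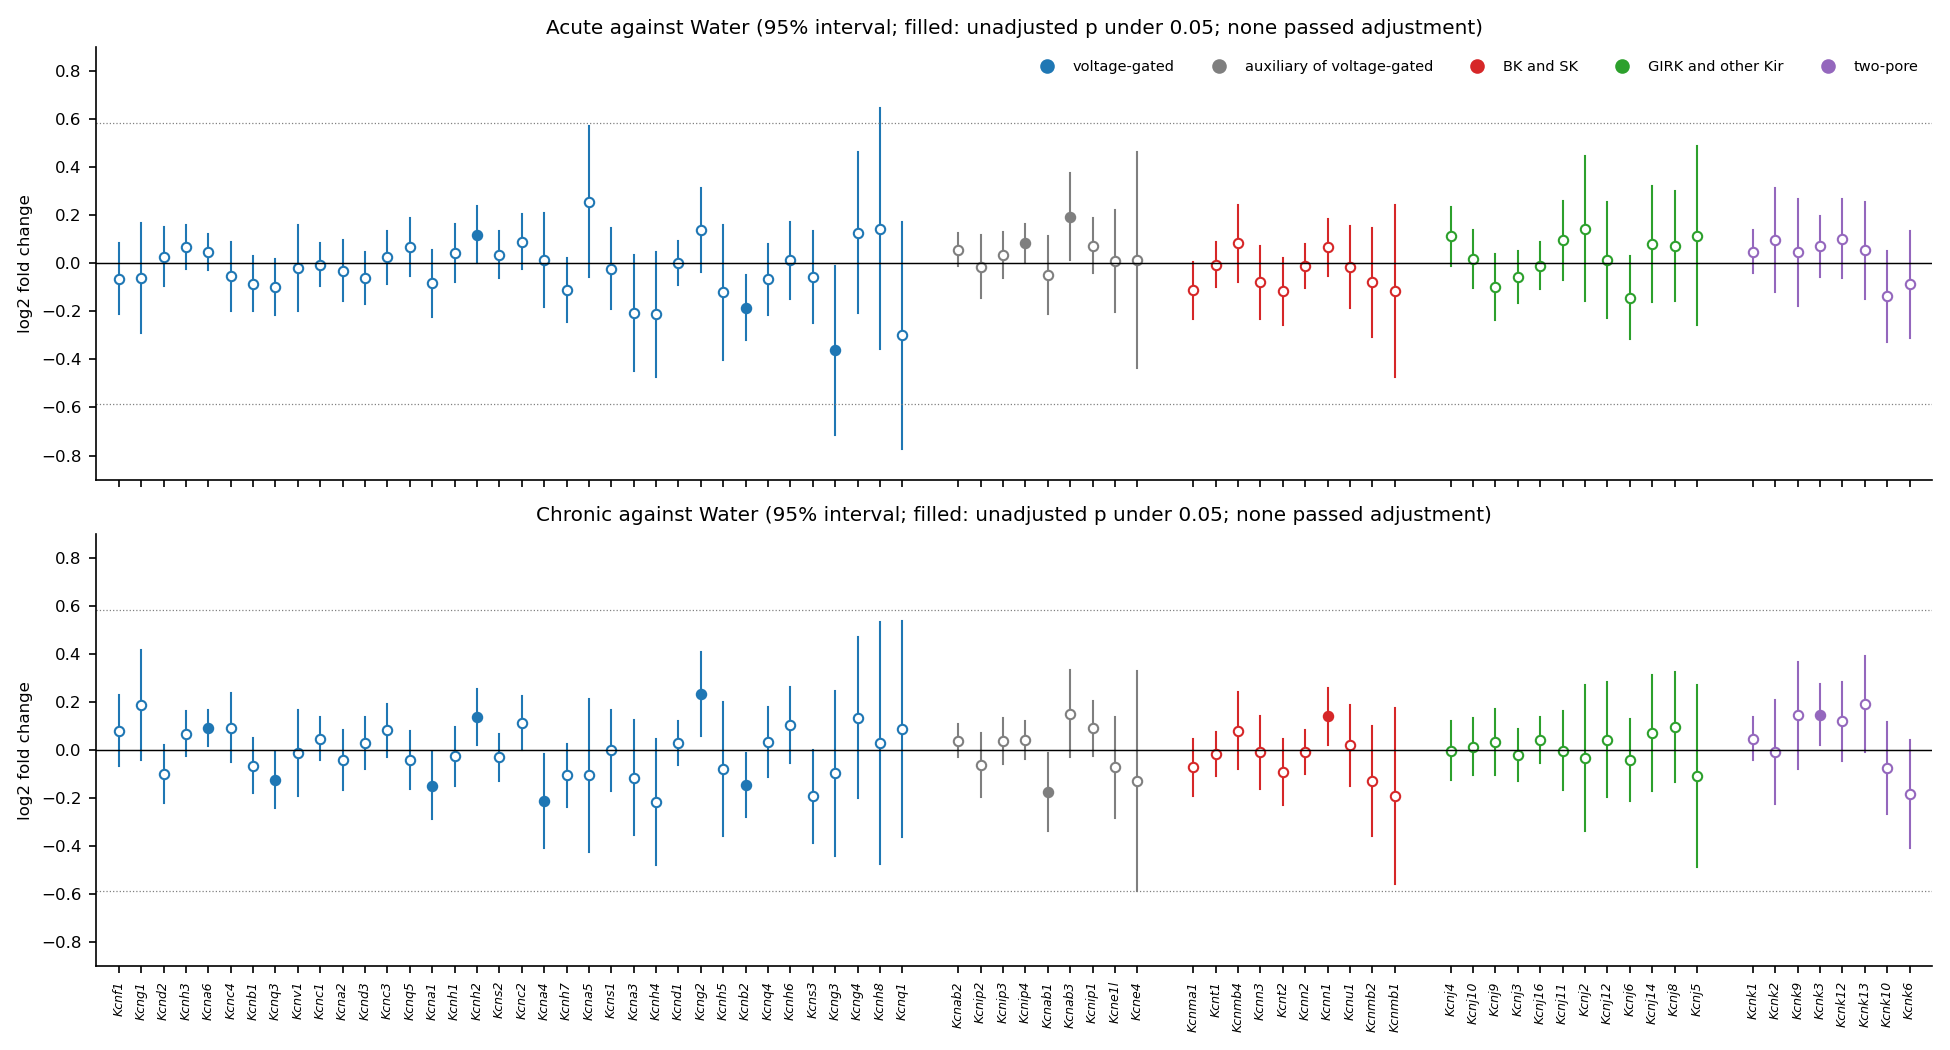
Log2 fold change of 75 genes for Acute against Water (upper) and Chronic against Water (lower), with 95% intervals, coloured by family. Filled points have an unadjusted p under 0.05, which 5 genes had in the upper panel and 10 in the lower, and no gene passed adjustment. Dotted lines mark a 1.5-fold change.

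For Chronic against Water drinking, again none of the 76 genes was called, beside 3 of 16266 (0.0184%). The lowest adjusted p was 0.32. At an unadjusted p under 0.05, 5 were higher (6.58% beside 4.81% of all genes) and 5 lower (6.58% beside 5.65%). Both counts depended on the setting, with 4 higher and 1 lower with GC and length offsets, 2 and 1 with these offsets and a replicate block, 5 and 0 in the first batch alone and 6 and 8 in the second batch alone. Leaving out 1 mouse gave 4 to 8 higher and 1 to 7 lower. The split was 5 and 1 without Water mouse 3 or Water mouse 4 of the second batch, 6 and 1 without Chronic mouse 4 of the second batch, and 6 and 7 without Water mouse 43 or Water mouse 5. The median log2 fold change was -0.0021, beside 0.0022 over all genes. In all, 75 of 76 intervals lay within 1.5-fold (the exception was *Kcne4*), and 61 within 1.3-fold.

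The 5 with a higher estimate were *Kcng2*, *Kcna6*, *Kcnn1*, *Kcnk3* and *Kcnh2*. *Kcng2*, a silent Kv6 subunit, ran from 6.15 to 9.60 CPM in Water mice (median 7.17) and from 7.21 to 9.81 in Chronic mice (median 8.96). Its log2 fold change was 0.23 ± 0.086 (adjusted p = 0.32), and 8 of 9 Chronic mice lay above the Water mean. In the first batch alone the estimate was 0.052 and in the second 0.34. *Kcna6*, a Kv1 subunit, had 0.094 ± 0.037 (adjusted p = 0.349), the same in both batches at 0.093 and 0.092. *Kcnk3*, the acid-sensitive TASK-1 leak channel, ran from 14.6 to 19.6 CPM in Water (median 17.0) and from 15.7 to 22.3 in Chronic mice (median 18.04), with a log2 fold change of 0.15 ± 0.061 (adjusted p = 0.377). *Kcnh2* had 0.14 ± 0.058 (adjusted p = 0.385). *Kcnn1*, the SK1 gene, had 0.14 ± 0.058 (adjusted p = 0.375), made up of -0.0054 in the first cohort and 0.23 in the later one.

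The 5 with a lower estimate were all voltage-gated or auxiliary genes. *Kcna4*, the Kv1 channel of A-type current, ran from 23.0 to 39.5 CPM in Water (median 34.0) and from 21.7 to 34.6 in Chronic mice (median 28.9), and 8 of 9 Chronic mice lay below the Water mean. Its log2 fold change was -0.21 ± 0.096 (adjusted p = 0.436). *Kcnab1*, a Kv beta subunit, had -0.17 ± 0.079 (adjusted p = 0.436), *Kcna1* -0.15 ± 0.068 (adjusted p = 0.44), *Kcnb2* -0.15 ± 0.065 (adjusted p = 0.433) and *Kcnq3* -0.13 ± 0.057 (adjusted p = 0.436). *Kcnb2* was spread widely in Chronic mice, from 18.7 to 27.0 CPM, which covered nearly all of the Water range. *Kcna1* was at 29.4 CPM in Chronic mouse 1 of the second batch, against 39.4 to 48.9 in the other Chronic mice.

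Both comparisons with Water share the 10 Water mice and are not independent. By family, the 8 two-pore genes had a median of 0.083 in Chronic against Water (5 above 0 and 3 below), and the 12 inward rectifiers 0.0063 (6 and 6).

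**Figure D4:**
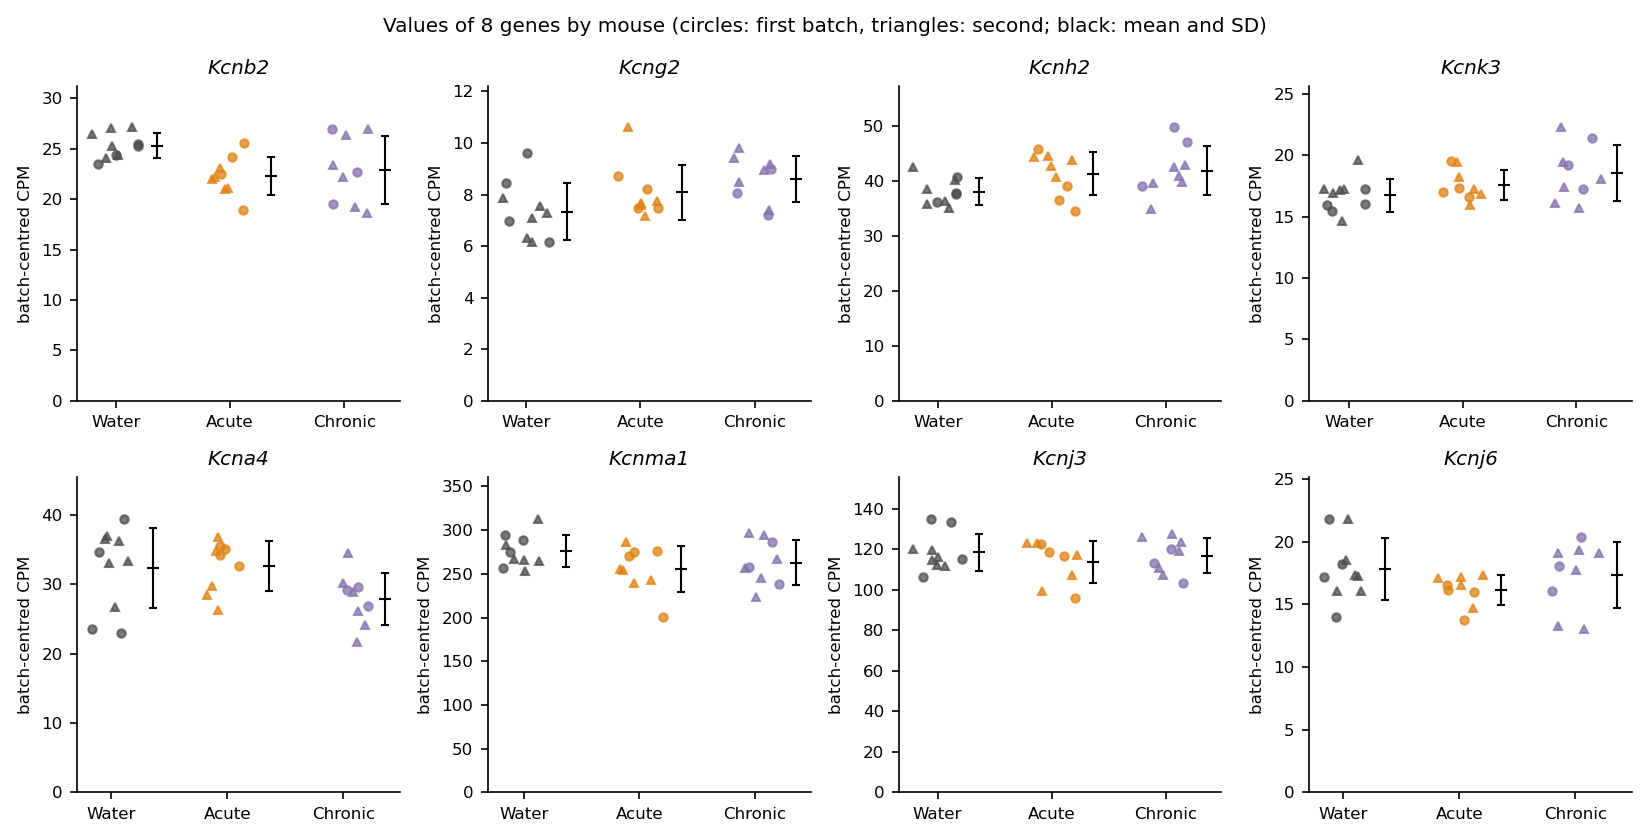
Batch-centred CPM of 8 genes by mouse, in Water, Acute and Chronic groups, with circles for the first batch and triangles for the second; axes start at 0. Black marks are the mean and SD. The 3 groups overlap in every gene shown, *Kcnb2* (Water 23.5 to 27.1, Acute 18.9 to 25.5) included.

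For Chronic against Acute drinking no gene was called among the 76, and none of 16266 (0%). At an unadjusted p under 0.05, 2 were higher in Chronic mice (2.63% beside 1.95% of all genes) and 3 lower (3.95% beside 2.5%). Leaving out 1 mouse gave 0 to 5 higher and 0 to 5 lower, with 5 of each without Chronic mouse 3 and 0 of each without Chronic mouse 2. *Kcna5*, a Kv1 channel, ran between 11.1 and 17.1 CPM in Acute (median 14.2) and between 7.72 and 14.8 in Chronic mice (median 11.5), with a log2 fold change of -0.36 ± 0.158. *Kcna4* had -0.22 ± 0.098 and *Kcnd2* -0.13 ± 0.061. *Kcng1* had 0.25 ± 0.115 and the Kv3 gene *Kcnc4* 0.15 ± 0.072, followed by *Kcnf1* at 0.14 ± 0.074 and the GIRK gene *Kcnj9* at 0.13 ± 0.069. *Kcnj4* had -0.11 ± 0.062. The adjusted p was 0.998 for each of these by edgeR. Of the 76 intervals, 70 lay within 1.5-fold and 66 within 1.3-fold.

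The channels most studied with ethanol showed no called difference. *Kcnma1* ran from 254 to 313 CPM in Water (median 271), from 200 to 286 in Acute (median 255) and from 223 to 297 in Chronic mice (median 258), with a log2 fold change of -0.071 ± 0.058 in Chronic against Water (adjusted p = 0.705). The lowest of these, at 200 CPM, was Acute mouse 33. Its subunit *Kcnmb4* had 0.084 ± 0.078 in Acute and 0.081 ± 0.078 in Chronic mice.

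The SK gene *Kcnn2* had intervals of -0.10 to 0.081 for Acute and -0.10 to 0.084 for Chronic against Water on the log2 scale, and *Kcnn3* from -0.23 to 0.074 and from -0.16 to 0.14. For the sodium-activated channel *Kcnt1* the estimates were -0.0053 ± 0.046 and -0.016 ± 0.046. A change of the BK, SK or sodium-activated pore genes of 1.3-fold therefore lies outside the intervals of *Kcnma1*, *Kcnn2*, *Kcnn3* and *Kcnt1* in both comparisons.

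Of the GIRK subunits, *Kcnj3* ran from 106 to 135 CPM over Water mice, 96.0 to 123 over Acute mice and 103 to 128 over Chronic mice, and its log2 fold changes were -0.058 ± 0.053 and -0.020 ± 0.053. *Kcnj6* had -0.14 ± 0.084 in Acute mice, where all 9 lay below the Water mean (adjusted p = 0.595), and -0.040 ± 0.083 in Chronic mice. *Kcnj9* had -0.099 ± 0.067 and 0.034 ± 0.067. The astrocyte gene *Kcnj10* had 0.018 ± 0.058 and 0.014 ± 0.058.

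The Kv7 gene *Kcnq5* had log2 fold changes of 0.069 ± 0.059 in Acute and -0.042 ± 0.059 in Chronic mice. *Kcnq3* had -0.098 ± 0.057 in Acute mice. *Kcna2* had -0.030 ± 0.061 and -0.041 ± 0.061, and *Kcnk2*, the TREK-1 leak channel, 0.097 ± 0.105 and -0.0079 ± 0.105. None of these passed the test.

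Partners that are not named *Kcn* were read from 4 lists, of which 42 of 44 genes were measured. They were auxiliary proteins, anchoring and trafficking proteins, the G protein path to GIRK channels, and potassium pumps and cotransporters. None was called in any comparison. At an unadjusted p under 0.05, 3 were higher and 0 lower in Acute against Water (beside 5.07% and 4.45% of all genes). In Chronic against Water 4 were higher and 3 lower (beside 4.81% and 5.65%), and in Chronic against Acute 0 and 2 (beside 1.95% and 2.5%). The smallest p among pumps was that of *Atp1b1*, a sodium-potassium pump subunit, with 0.082 ± 0.025 in Acute mice (adjusted p = 0.384), in the G protein list that of *Gnai2*, with 0.093 ± 0.033 in Chronic mice (adjusted p = 0.29). *Abcc9*, a subunit of ATP-sensitive channels, had -0.22 ± 0.077 in Chronic mice (adjusted p = 0.279), and the anchoring gene *Dlg2* -0.090 ± 0.033 (adjusted p = 0.324).

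Of the 76 genes, 36 (47.4%) differed between the batches at an adjusted p under 0.05 by edgeR, beside 46.2% of all genes, with 31 higher and 5 lower in the second. Over all genes 22% were higher and 24.3% lower in the second batch. *Kcnn2* differed most. It ran from 11.9 to 14.5 CPM in the 11 mice of the first batch and from 31.2 to 39.9 in the 17 of the second, a log2 difference of 1.36, and the batches did not overlap. *Kcnmb1*, the smooth-muscle BK beta subunit, was at 1.74 ± 0.482 CPM in the first and 0.895 ± 0.231 in the second batch (log2 difference -0.95). *Kcnk12* (0.72) and *Kcna3* (0.70) were the others beyond 0.5. Each batch has its own table, so an effect of the cohort and one of the table cannot be told apart. The tables differ in part in annotation release. All gene identifiers of the first carry their GENCODE M21 version, whereas 1026 of 51073 in the second do not. Of the 76 genes, 6 have another version in the second table (*Kcnab1*, *Kcnab2*, *Kcnc4*, *Kcnip1*, *Kcnip2* and *Kcnt2*), and the 4 genes with batch values above have the same version in both. The part of the annotation in the batch differences was not tested. *Kcnmb1*, *Kcnk12* and *Kcna3* are named here after their values were seen, as are *Kcne1l* and *Kcnk13* in the next comparison.

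Whether an ethanol difference itself differed between the batches was tested as an interaction. No gene of the 76 passed adjustment for either difference, beside 0 (0%) of 16266 genes for Acute and 1 (0.00615%) for Chronic. For the Acute difference, 2 genes had an unadjusted p under 0.05 (*Kcne1l* and *Kcnq5*), beside 4.13% of all genes, and for the Chronic difference 4 (*Kcnj5*, *Kcnj10*, *Kcne1l* and *Kcnk13*), beside 6.15%. The GIRK4 gene *Kcnj5* had the largest of these, with a Chronic difference of 0.61 within the first and -0.52 in the second batch (unadjusted p = 0.00218, adjusted p = 0.718).

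The 76 genes varied somewhat more between mice than other genes. The median SD of log2 CPM with batch and group means removed was 0.162, beside 0.138 over all genes, and the median biological coefficient of variation was 0.097 beside 0.082. The 4 with the largest SD were *Kcnh8* (0.513), *Kcne4* (0.42), *Kcnq1* (0.398) and *Kcnj5* (0.388). Each had a mean below 30 counts, so that counting error enters. Within the first and second batch the SD was 0.314 and 0.338 for *Kcnj5*, and 0.42 and 0.355 for *Kcna5*. The place of *Kcnj5* among the 4 thus depended on how batch and group were removed. *Kcnh8*, an ELK channel, ran from 0.504 to 1.46 CPM over Water mice, 0.506 to 1.37 over Acute mice and 0.595 to 1.75 over Chronic mice.

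These 4 genes were set against 5 marker scores (striatum, choroid plexus and ependyma, thalamus, central amygdala and oligodendrocytes) over 28 mice, with batch and group means removed from both, by 2-sided permutation within batches and adjustment over 20 relations. Of these, 2 passed, both with the oligodendrocyte score. *Kcnj5* had Pearson r = 0.70 (permutation p = 9e-05, adjusted p = 0.0018) and Spearman rho = 0.73 (permutation p = 4e-05, adjusted p = 0.0008). The r was 0.68 within the first batch, 0.73 within the second and 0.74 without the 2 mice farthest from the median score. *Kcnh8* had r = 0.60 (permutation p = 0.00166, adjusted p = 0.0166) and rho = 0.63 (permutation p = 0.00065, adjusted p = 0.0065), with 0.60 in each batch and 0.61 without the 2 farthest mice. The next was *Kcnj5* against the striatum score (r = 0.51, permutation p = 0.0076, adjusted p = 0.0507; rho = 0.45, permutation p = 0.0181, adjusted p = 0.0725), and r was 0.37 without the 2 farthest mice. Gene and score come from the same libraries.

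**Figure D5:**
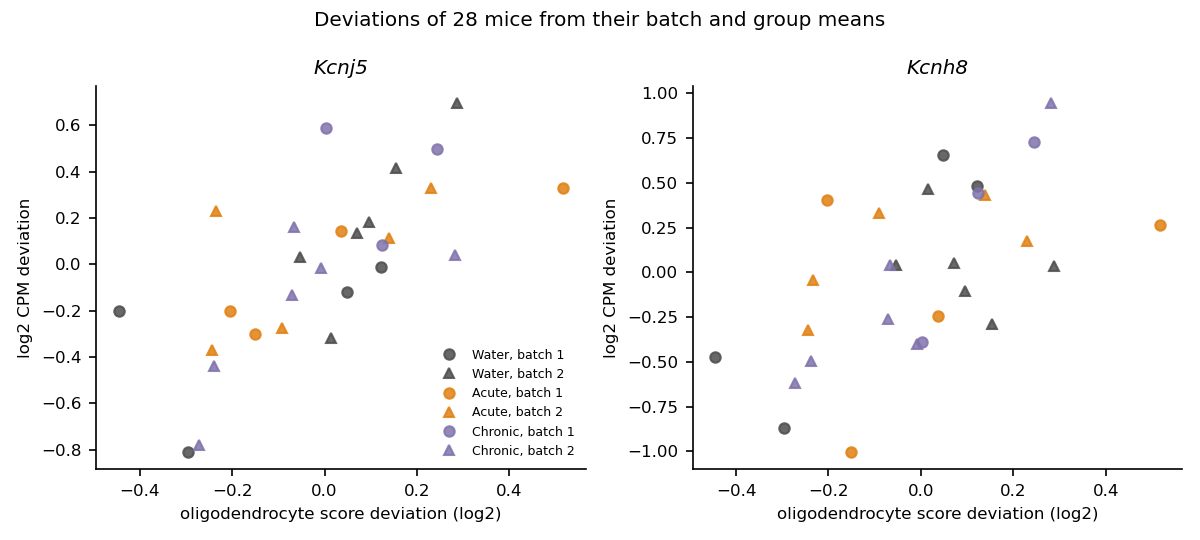
Deviation of *Kcnj5* (left) and *Kcnh8* (right) in log2 CPM against the deviation of the oligodendrocyte score, for 28 mice. Batch and group means were removed as separate terms. Colours mark the groups and shapes the batches. Mice with a higher score were higher in both genes, with r = 0.70 and r = 0.60.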

How the data were processed

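RNA-seq counts of amygdala from 28 mice were analysed. The authors quantified paired-end reads with Salmon 0.14.1 against a GRCm38 transcriptome after FastQC 0.11.8, summarized them by gene with tximport and GENCODE M21, and deposited estimated counts as whole numbers, not normalized or adjusted for batch, as 1 table per batch. These expected counts were used as they stand. Tables were joined on gene identifiers without their version (49477 shared genes, of which 766 carry another version in the second table), and genes with a mean count of at least 10 were tested (16266). No column was left unmapped, and no 2 libraries of a group and batch were alike within counting noise (55 pairs checked).

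Fits used edgeR 4.0.16 under R 4.3.3 (TMM, quasi-likelihood test, group and batch, all mice), tested on simulated data. DESeq2 1.42.0 and ComBat-seq (sva 3.50.0) served as alternatives, as did each batch alone, other filters and scaling, offsets for GC content and length, a replicate block, fits of the 2 groups compared, and fits without 1 mouse. Log2 CPM used a prior count of 2. Correlations used 100000 permutations. Intervals cover 95%. Each mouse is a separate animal. The total counts set the counting error.

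Genes named were those called, the 4 with the smallest p in each direction per comparison, the 3 highest in Water per family, the 4 with the largest SD, 16 channels linked to ethanol or the amygdala, and those nearest the count minimum. The genes and lists were chosen with earlier results of these data known. The values and sequence of 1 of the genes are not reported here, though it is in every count.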

Additional observations from a re-analysis of the deposited data

Results flagged for a closer look

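For each of 42 named genes, the highest and lowest mouse of each group were compared with the rest of the group on batch-centred values (Dixon's ratio of gap to range), which gave 126 group tests and 6 mice beyond the 95% limit. Chance flags about 1 in 20 such groups, so 6 of 126 is near that rate. *Kcna1* was at 29.4 CPM in Chronic mouse 1 of the second batch, against 39.4 to 48.9 in the other 8, and *Kcna1* is among the genes with an unadjusted p under 0.05 in Chronic against Water. *Kcnab3* was at 17.7 CPM in Water mouse 6 of the second batch, against 11.3 to 14.3 in the other 9. *Kcng2* was at 10.6 CPM in Acute mouse 2 of the second batch, against 7.16 to 8.71 in the others. *Kcnma1* was at 200.4 CPM in Acute mouse 33 of the first batch, against 240 to 286 in the others. *Kcnj10* was at 165 CPM in Chronic mouse 38 and *Kcnk1* at 62.2 CPM in Chronic mouse 39, both of the first batch, against 112 to 137 and 52.1 to 56.5 in the other Chronic mice.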

How the results depend on the processing

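The number of called genes among the 76 was 0 in all 3 comparisons under every alternative and in all 28 fits that left out 1 mouse. Over the alternatives other than leaving out a mouse, the median log2 fold change of the 76 lay between -0.012 and 0.013 in Acute against Water, between -0.0097 and 0.0047 in Chronic against Water and between -0.0035 and 0.022 in Chronic against Acute. The number at an unadjusted p under 0.05 did move. In Acute against Water it went from 5 to 3 with a filter at a mean of 100 counts, in the first batch alone, in the second batch alone, with GC and length offsets, and with the replicate block and these offsets. In Chronic against Water it went from 10 to 5 in the first batch alone and with GC and length offsets, and to 3 with the replicate block and offsets, and rose to 12 with no filter and to 14 in the second batch alone. In Chronic against Acute it went from 5 to 3 with ComBat-seq and DESeq2 and to 8 with only the 2 groups compared. In either batch alone it was 2, both higher in the first batch and both lower in the second. The split of these genes also moved. In Acute against Water it went from 3 higher and 2 lower to 2 and 1 with GC and length offsets, and in Chronic against Acute from 2 and 3 to 1 and 3, or 0 and 4 with the replicate block and offsets. Smaller gene lists and fewer mice are part of the construction of some of these settings, and the cause was not tested. Leaving out 1 mouse gave 2 to 7 genes in Acute against Water, 6 to 13 in Chronic against Water and 0 to 10 in Chronic against Acute. The count in Acute against Water fell to 2 without Water mouse 41, Water mouse 4 or Acute mouse 3, and to 3 without Water mouse 1 or 6 or Acute mouse 1, 2 or 5. That in Chronic against Water fell to 6 without Water mouse 3 or 4. In Chronic against Acute it was 10 without Chronic mouse 3, 0 without Chronic mouse 2, 1 without Acute mouse 36, 3 or 4 or Chronic mouse 4, 2 without Chronic mouse 5, and 3 without Acute mouse 34 or 35, Chronic mouse 39 or 1, or Water mouse 4.

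The replicate block alone left the counts at 4, 10 and 7 genes. Over 16 same-numbered pairs of the second batch the correlations of deviations from group means ran from -0.35 to 0.34 (median -0.008). Whether same-numbered mice share more than a number was not tested against differently numbered pairs. Of 54 differences of single genes, none became called under an alternative, and *Kcnn1* in Chronic against Water was the single one with an unadjusted p under 0.05 to change sign, at -0.0054 in the first batch alone. For *Kcne4*, *Kcnq1*, *Kcnh8*, *Kcnj5* and *Kcng3*, genes with few counts, and for *Kcna5*, the interval reached beyond 1.5-fold in at least 1 comparison.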
